A study of Drosophila melanogaster with 63 samples.

Results

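Adult males of the OregonR wild-type strain of Drosophila melanogaster that had spent 24 h on sugar were compared with males kept on yeast. The comparison rests on 6 of the 63 arrays of the series, chosen by their labels, which give the sex, the sugar treatment and the time of 24 h. The whole series compares adults without food or on sugar with yeast-fed adults of the same sex, and growing larvae with younger larvae, on spotted arrays that hold RNA of both groups in separate dye channels. Flies were raised on standard fly food at 25 C. Control males were then moved to yeast paste on filter paper soaked in PBS, a buffered salt solution, and treated males to filter paper soaked in PBS with 20% sucrose. Sugar-fed flies thus had carbohydrate but no yeast, the source of protein, lipid and vitamins, and the labels speak of them as starved. The age of the flies and the part of the body used are not given in the labels, and no allele, transgene or drug is named. Other groups used for comparison were OregonR males on sugar for 48 h (4 arrays), males on PBS alone for 24 h (6 arrays, called starved here) and females on sugar for 24 h (5 arrays), each against yeast-fed flies of its own sex.

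In the 24 h males, 3 arrays carried the control RNA in the first dye channel and 3 in the second. All 6 arrays held the same deposited value for each clone, since the authors merged the repeat hybridisations, and this was so in each of the 12 groups of the series. Every gene therefore had 1 value per group, and no test, standard error or p-value could be given. Higher and lower describe these values. Whether the arrays of a group came from separate sets of flies is not given. Values are log2 ratios, likely of treated over control: on this reading the larval storage protein gene Lsp2 lay at 8.52 in larvae of 88 h and 8.26 in larvae of 100 h against larvae of 40 h, which is the direction known for this gene. A log2 ratio of -1 is a 2-fold lower and 1 a 2-fold higher signal on sugar, and 2-fold is the threshold used for all counts. The only technical yardstick was the difference between clones of the same gene on the same arrays. Over 644 genes with 2 clones its median was 0.09 and its 95th percentile 0.37 on the log2 scale.

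Yeast is the main source of amino acids, nucleotides, sterols and B vitamins for laboratory flies, and sucrose replaces its energy but not these. The fat body, which has the roles of liver and adipose tissue, stores glycogen, fat and storage proteins and holds much of the enzyme equipment for amino acid and purine metabolism. The midgut secretes proteases and glycosidases whose expression is known to vary with diet. Sugar itself is sensed in the fly by a pair of transcription factors, Mondo and its partner Mlx (bigmax), of which the transcription factor genes sug and cbt are known targets.

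Far more genes were lower than higher in males on sugar for 24 h. Of 9205 genes with a value, 104 were at least 2-fold lower, which is 1.13% of them, and 10 were at least 2-fold higher, which is 0.109%. The ratio of the counts was 10.4. Most of the transcriptome lay near the yeast-fed level, with 97.3% of genes within 1.5-fold and a median over all genes of 0.00, and 51.3% of genes lay above 0. The 104 lower genes had a median of -1.33 and reached -4.59, and 12 of them were at least 4-fold lower. The 10 higher genes had a median of 1.18 and reached 4.95. Just inside the threshold were CG17896 at -1.03, Mal-A8 at -1.01 and CG12684 at -1.001, and just outside it CG7214 at -0.9986, Jon65Ai at -0.98 and CG15281 at -0.98. On the higher side cbt at 1.08, sug at 1.05 and Jon74E at 1.00 were inside, and CG12374 at 0.98, CG2765 at 0.95 and CG9451 at 0.92 were outside.

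The counts depend on genes close to the threshold. Of the lower genes 47 lay beyond it by more than the 95th percentile of the clone difference, and 93 genes that were not counted lay within that distance of it. For higher genes these numbers were 3 and 23. Of the 104 lower genes 8 had more than 1 clone, and all clones of these 8 genes passed 2-fold. They are 1.03% of the 773 genes with several clones, close to the share among all genes. The yardstick comes from genes with 2 clones, and 97.3% of all genes lay within 1.5-fold. Among the 8, clones lay further apart than 0.37 for CG11089 (-2.34 and -3.35), Gart (-2.003 and -2.52) and Obp99b (-1.90 and -1.40). The 4 clones of CG16758 spanned -1.86 to -1.27. Clones of Amy-p, bmm, CG1213 and CG17896 differed by less. The yardstick can thus be too small for lower genes, and 47 is not a count of genes safely past 2-fold. The other 96 lower genes and all 10 higher genes rested on 1 clone each.

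Lsp2, which encodes a hexameric storage protein of the fat body, was the lowest gene, at -4.59 or 24.1-fold below yeast-fed males. CG11538 was next at -4.42 on a clone of its own and is counted separately among the 104. The RefSeq annotation lists it as an older name both of Lsp2 and of asRNA:CR11538, an overlapping antisense RNA, and which of these RNAs the clone binds could not be told. The other measured storage-related genes lay near 0, with Fbp2 at -0.03 and fit, a nutrient-dependent gene of the head fat body, at -0.22. Lsp2 lay at -6.01 in males after 48 h of sugar, at -5.46 in starved males and at -6.04 in sugar-fed females at 24 h, so the 24 h males on sugar had the ratio nearest to 0 of these 4 groups. In a ratio of this kind, fewer cells of a type and less RNA per cell cannot be told apart.

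De novo synthesis of purines held several of the lowest genes. At least 2-fold lower were 5 of its 10 measured genes, and none was higher. The median of the list was -1.03, against 0.00 over all genes. The lower genes all belong to the steps that lead to IMP, the common precursor. CG11089, the bifunctional enzyme that closes the purine ring, lay at -2.85 (7.20-fold lower), and its 2 clones at -2.34 and -3.35. Gart, which carries several early steps on a single protein, lay at -2.26 (4.80-fold lower) with clones at -2.003 and -2.52. Paics was at -1.89, Pfas at -1.70 and Prat2, an amidophosphoribosyltransferase that commits precursors to the pathway, at -1.09. Adsl, adenylosuccinate lyase, was at -0.97, just short of the threshold.

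The remaining purine synthesis genes lay near the yeast-fed level. Prat, the paralogue of Prat2, was at 0.01. The steps after IMP had values of -0.09 for Adss, on the way to AMP, and 0.13 and 0.05 for ras and bur, the IMP dehydrogenase and GMP synthetase on the way to GMP. Among 7 genes of purine turnover, CG16758, a purine nucleoside phosphorylase, was at -1.57, with 4 clones between -1.86 and -1.27, and ry, xanthine dehydrogenase, at -1.04. The list median there was -0.46, and the adenosine deaminase gene Ada was at -0.05. None of the 8 genes of pyrimidine synthesis and breakdown passed 2-fold, which lies close to the shares of all genes (1.13% lower and 0.109% higher). The median of the pyrimidine list was -0.17. Its synthesis genes r, r-l, Dhod and Ctps lay at 0.25, 0.21, 0.15 and 0.00, its breakdown genes CRMP, su(r) and pyd3 at -0.55, -0.51 and -0.33, and Ts, thymidylate synthase, at -0.50.

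Folate and glycine genes, which supply purine synthesis with one-carbon units and glycine, were lower too. The list had 6 of 8 genes past 2-fold, all of them lower, and a median of -1.63. Shmt, which moves a carbon from serine to folate, lay at -2.22 (4.67-fold lower). Nmdmc and pug, folate dehydrogenase and cyclohydrolase enzymes, lay at -2.08 and -1.69. The glycine cleavage genes CG3999, a glycine decarboxylase, and CG6415, an aminomethyltransferase, were at -1.72 and -1.17, and Sardh, sarcosine dehydrogenase, was at -1.56. Outside this group were Fpgs1, a folylpolyglutamate synthase, at -0.18, and Gnmt, glycine N-methyltransferase, at 0.19.

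**Figure D1:**
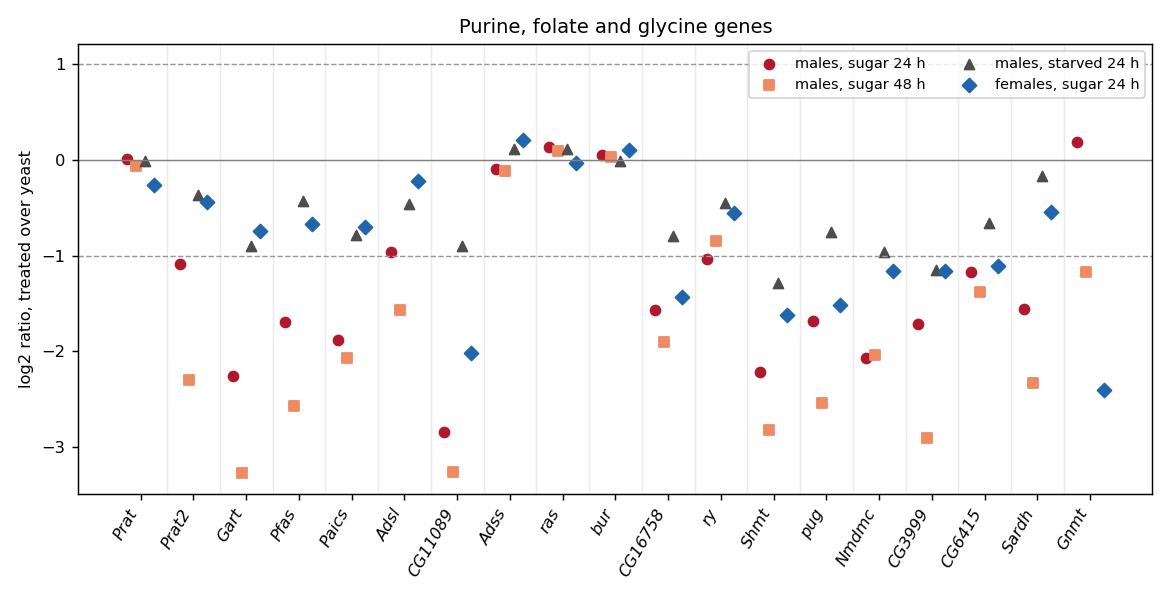
Log2 ratio of treated over yeast-fed flies (vertical axis) for the measured genes of purine synthesis, the purine turnover genes CG16758 and ry, and folate and glycine genes other than Fpgs1, with 1 merged value per gene in each of 4 groups (Gnmt has none in starved males) and dashed lines at 2-fold. In males on sugar for 24 h the genes from Prat2 to CG11089 lie at or below -0.97, while Prat, Adss, ras and bur lie between -0.09 and 0.13.

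Serine and methionine genes gave a mixed picture. The serine synthesis genes aay, phosphoserine phosphatase, and CG6287, phosphoglycerate dehydrogenase, were at -1.29 and -1.19. CG10621, a homocysteine methyltransferase, was at -1.74, and Ahcy, which hydrolyses S-adenosylhomocysteine, at -0.97. Sam-S, the S-adenosylmethionine synthetase, stayed close to 0 at 0.15, and Bhmt was at 0.25. Past 2-fold were 3 of the 9 genes, all lower, and the median of all 9 was -0.68.

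Amino acid breakdown showed lower values across several branches. Of 26 measured genes 7 were at least 2-fold lower, none was higher, and 24 lay below 0, with a median of -0.40. Lowest were CG9547, a glutaryl-CoA dehydrogenase of lysine breakdown, at -1.91 and Hpd, of tyrosine breakdown, at -1.85. Oat, ornithine aminotransferase, was at -1.68, Gcat, of threonine breakdown, at -1.42, and CG17896, of valine breakdown, at -1.03. Both aspartate aminotransferases were lower, Got2 at -1.40 and Got1 at -1.39. By contrast Gdh, glutamate dehydrogenase, lay at -0.39, P5CDh1, of proline breakdown, at 0.15, and Ass, argininosuccinate synthetase, at 0.19.

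Genes of gluconeogenesis and glycogen metabolism were lower in part. The gluconeogenesis list had 2 of 4 genes past 2-fold, all lower, and a median of -1.06. Pepck1, phosphoenolpyruvate carboxykinase, was at -1.73 (3.32-fold lower) and fbp, fructose-1,6-bisphosphatase, at -1.60, while PCB, pyruvate carboxylase, was at -0.53 and G6P, glucose-6-phosphatase, at 0.14. The glycogen and trehalose list had 4 of 14 genes past 2-fold, all lower. These were AGBE, the branching enzyme, at -1.60, Glys, glycogen synthase, at -1.31, UGP, which makes UDP-glucose, at -1.26, and CG9485, the debranching enzyme, at -1.16. Glyp, glycogen phosphorylase, was at -0.96, so that genes for building and for degrading glycogen both had low ratios. Trehalose genes did not reach 2-fold, with Tps1, trehalose-6-phosphate synthase, at 0.19 and Treh, trehalase, at -0.27.

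In glycolysis 1 of 9 genes passed, Pgi, glucose-6-phosphate isomerase, at -1.28, although all 9 lay below 0 (median -0.28). Pfk, phosphofructokinase, was at -0.04. The pentose phosphate list had a lower median of -0.82, with Taldo, transaldolase, at -1.20 and CG8036, a transketolase, at -1.07 as 2 of 5 genes past 2-fold. None of the 11 genes of the citrate cycle and pyruvate list passed, and their median was -0.03. That count lies close to the shares of all genes, 1.13% lower and 0.109% higher.

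Carbohydrate genes outside these pathways were grouped after their values were seen, so their counts describe the choice as well as the data. Galk, galactokinase, was at -1.88, CG3534, a xylulokinase, at -1.38, and Miox, inositol oxygenase, at -1.28. CG10467 and CG32444, aldose 1-epimerases, lay at -1.19 and -1.08, and CG11594, a carbohydrate kinase, at -1.06. Galt, the galactose-1-phosphate uridylyltransferase, was short of the threshold at -0.85. Of 9 further sugar transporter genes added in the same way, CG8249 at -1.26, CG1208 at -1.16 and CG1213 at -1.08 were at least 2-fold lower. In the transporter list that was not added in this way none of 8 passed, and Glut1 lay at 0.00. Of all genes 1.13% were lower and 0.109% higher, so none of 8 lies close to those shares.

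Each lipid list had 1 gene or 0 past 2-fold, where 1.13% of all genes were lower and 0.109% higher. ATPCL, which makes cytosolic acetyl-CoA, was at -1.22 as 1 of 15 genes of fatty acid synthesis, and ACC, acetyl-CoA carboxylase, was at -0.88. FASN1, the main fatty acid synthase of the fat body, lay at -0.31, whereas its paralogue FASN2, known from oenocytes, was at 0.71. In lipid breakdown, bmm, the adipose triglyceride lipase, was the exception among 14 genes at -1.13, with its clones at -1.20 and -1.06. The lipid droplet protein genes Lsd-1 and Lsd-2 were at 0.56 and 0.42, and mag, a lipase, at 0.68. None of the 11 lipid carrier genes passed, with Apoltp at 0.61 and Acbp2 at -0.85.

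**Figure D2:**
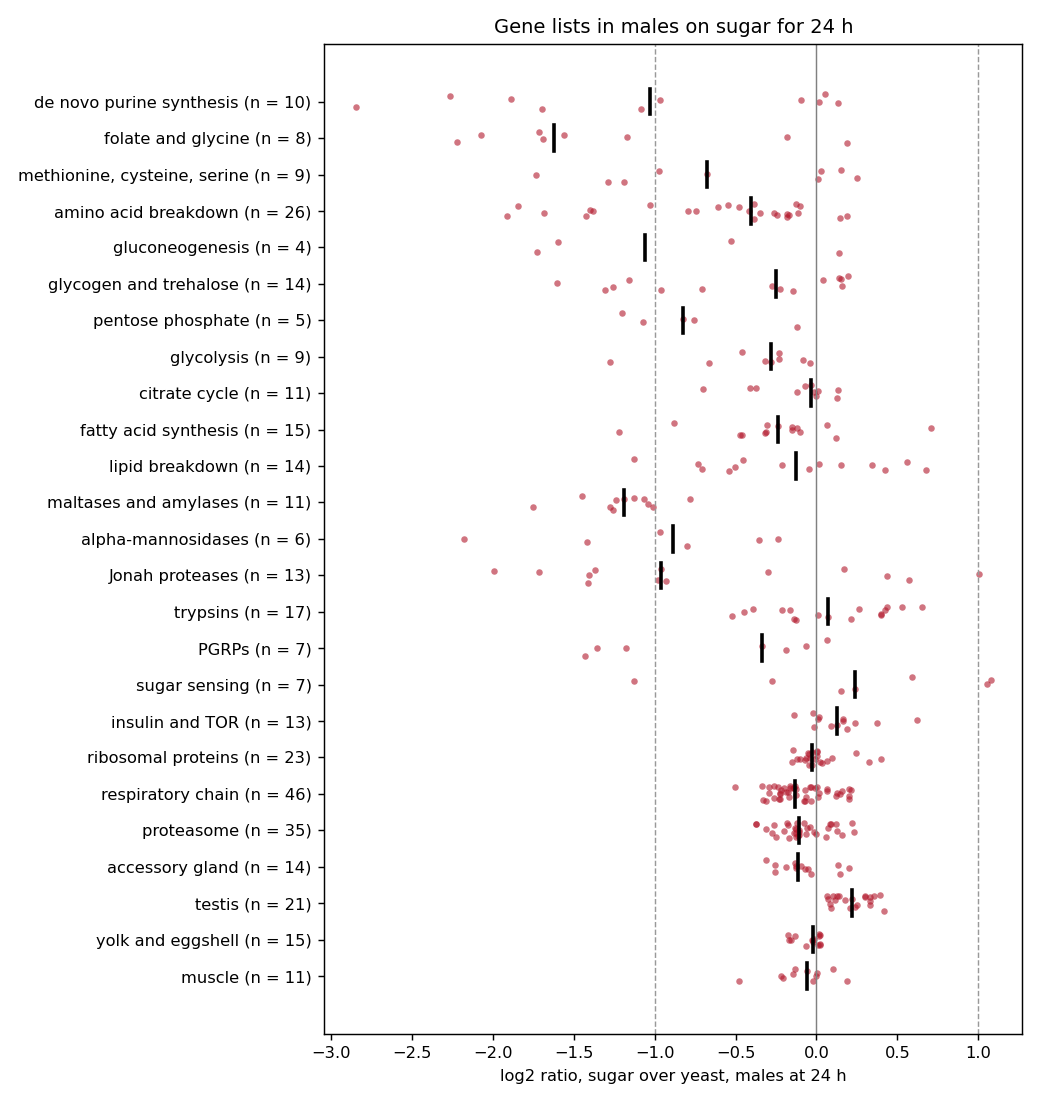
Log2 ratio of sugar over yeast in males at 24 h (horizontal axis) for each member of 25 gene lists (points) with the list median (black bar); dashed lines mark 2-fold and n is the number of measured genes, and the scatter within a row has no meaning. Medians of the purine synthesis, folate, gluconeogenesis, and maltase and amylase lists lie at or below -1.03. Those of ribosomal proteins, respiratory chain, proteasome and muscle lie between -0.13 and -0.03.

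Digestive genes divided by family. Of 11 measured maltase and amylase genes, which break down starch and disaccharides in the gut, 10 were at least 2-fold lower, and the remaining gene Mal-A2 lay at -0.78. The list median was -1.19, and the values spanned a narrow range down to -1.76 for Mal-B1. Amyrel, an amylase relative, was at -1.45, and tobi, an alpha-glucosidase known as a target of insulin signals from the brain, at -1.13. Amy-p, alpha-amylase, was at -1.24, and its 2 clones lay at -1.31 and -1.18. Members of such families have similar sequences, and how far a clone also binds RNA of a relative was not tested. Some lower genes lay side by side. The gene order of the RefSeq assembly Release 6 placed 103 of the 104. Of these 103, 15 lay in 6 runs of adjacent measured genes. Both members were lower in 9 of 8965 adjacent pairs, 0.10%, and the share that random order would give was not computed. The maltase genes were in 2 of these runs, Mal-A3, Mal-A6, Mal-A7 and Mal-A8 in the longest, and Mal-B1 and Mal-B2 with CG14933.

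Among 6 lysosomal-type alpha-mannosidase genes, all were below 0, with a median of -0.88. LManVI at -2.18 and LManIII at -1.42 were past 2-fold, and LManIV was nearest to 0 at -0.24. The Jonah genes, a family of midgut serine proteases, ranged on both sides of 0. Jon25Bi at -1.99, Jon99Ci at -1.72, Jon66Cii at -1.42, Jon25Biii at -1.41 and Jon66Ci at -1.37 were at least 2-fold lower, as 5 of 13. Jon74E was at least 2-fold higher at 1.00, and Jon65Aiii and Jon65Aiv lay at 0.57 and 0.43. The 17 trypsin genes stayed within 2-fold, from -0.52 to 0.65, with a median of 0.07. With 1.13% of all genes lower and 0.109% higher, none of 17 past 2-fold lies close to those shares.

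**Figure D3:**
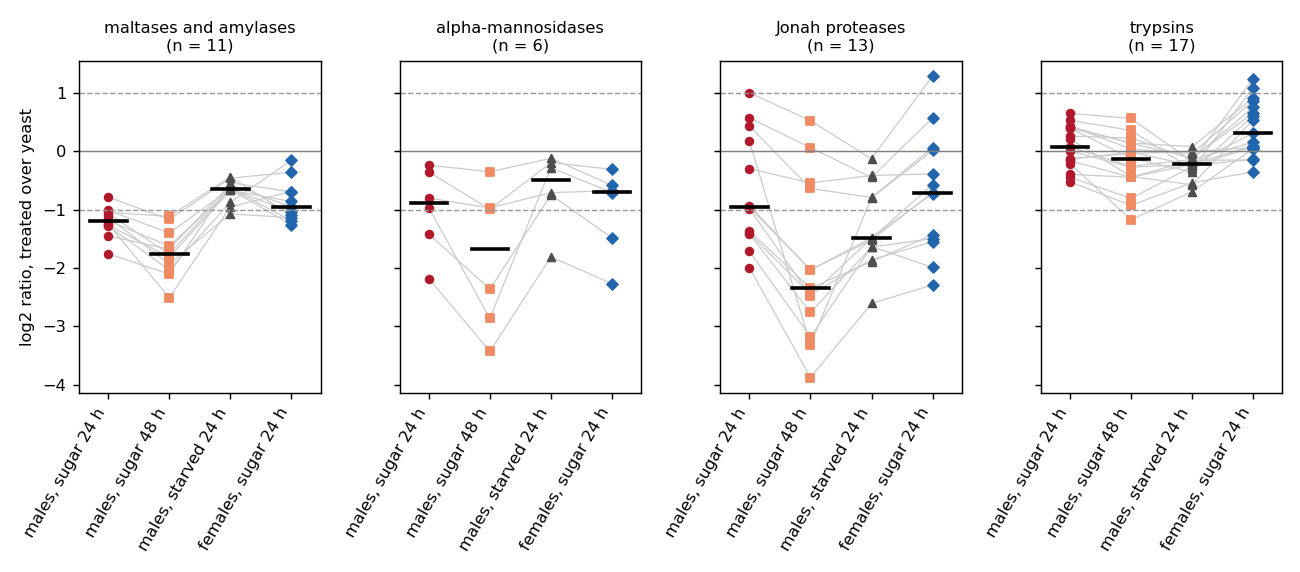
Log2 ratio of treated over yeast-fed flies (vertical axis) for maltase and amylase genes, alpha-mannosidase genes, Jonah proteases and trypsins in 4 groups; points are genes, grey lines join the same gene, black bars are list medians and dashed lines mark 2-fold. In males on sugar for 24 h the medians are -1.19, -0.88, -0.96 and 0.07 from left to right, and at 48 h they are -1.76, -1.68, -2.34 and -0.12.

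The higher genes were few. CG13558 was the highest at 4.95 (30.8-fold), followed by CG5773 at 2.02 and CG13607 at 1.496. These 3 are also the higher genes that lay beyond the threshold by more than the clone yardstick. CG1648 was at 1.32, CG3348 and CG5151 at 1.18 each, and Atg12, a ubiquitin-like protein of autophagosome formation, at 1.14. The transcription factor genes cbt and sug were at 1.08 and 1.05, and the protease gene Jon74E at 1.00. Thus 2 of 7 measured genes of the sugar-sensing list were higher and 1, tobi, lower, with a median of 0.24. Mondo itself lay at -0.27, bigmax at 0.24 and daw, an activin-type ligand responsive to sugar, at 0.59.

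Hormone signalling genes did not reach 2-fold. Of all genes 1.13% were at least 2-fold lower and 0.109% higher, so counts of 0 in the lists of this paragraph lie close to those shares. None of 13 insulin and TOR genes passed, and their median was 0.13. ImpL2, which binds insulin-like peptides, was the highest of them at 0.62, and Ilp2, InR and foxo lay at -0.02, 0.19 and -0.01. None of 6 genes of the adipokinetic hormone and peptide list passed either, and their median was 0.08. AkhR, the receptor of the adipokinetic hormone, lay at 0.59 there, and the other genes between 0.02 and 0.12. Jabba, a lipid droplet protein on none of the lists, was at 0.84. The growth-related lists also held no gene past 2-fold: 23 cytosolic ribosomal protein genes had a median of -0.03, 37 translation factor genes 0.08, 29 tRNA synthetase genes 0.00, 19 nucleolar genes 0.04 and 35 proteasome genes -0.11. Of 16 autophagy genes Atg12 alone passed, and the median of the list was 0.05.

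Defence genes were lower in some lists and not in others. PGRP-SC2, PGRP-SC1a and PGRP-SB1, peptidoglycan-cleaving proteins, were at -1.43, -1.36 and -1.18, as 3 of 7 PGRP genes, while 0 of 5 antimicrobial peptide genes passed. GstE9, GstE6 and GstD8, glutathione transferases, were at -1.24, -1.22 and -1.03, as 3 of 62 glutathione and UDP-glycosyl transferase genes. None of 66 cytochrome P450 genes passed. Of all genes 1.13% were at least 2-fold lower, so counts of 0 in such lists lie close to the share of all genes.

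Of the 104 lower genes, 67 were on any of the lists and 37 on none, and 27 of the 37 have only a CG number. The lists were chosen with earlier results of these data known, and 2 were added after the values were seen. The count of 67 thus describes that choice as well as the data, and the share of all genes on a list was not counted. Among the rest were smp-30, the relative of vertebrate regucalcin, at -2.62, Obp99b, an odorant-binding protein, at -1.65 with clones at -1.90 and -1.40, and GIIIspla2, a phospholipase A2, at -1.24. FarO, a fatty acyl-CoA reductase of oenocytes, was at -1.18. CG9119 at -2.47 and CG3699 at -2.25 were among the 7 lowest genes without being on a list.

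The lists for accessory gland, yolk and eggshell, muscle, neurons and eye lay near 0 in these males. The medians were -0.11 for 14 accessory gland genes, -0.02 for 15 yolk and eggshell genes, -0.06 for 11 muscle genes, 0.03 for 7 neuronal genes and 0.27 for 6 eye genes, and no member passed 2-fold. With 1.13% of all genes lower and 0.109% higher, counts of 0 in such short lists lie close to the share of all genes. Gut and fat body markers were mixed. The Jonah list had a median of -0.96 and the trypsin list 0.07. In the fat body list Lsp2 lay at -4.59, but Fbp2 at -0.03 and fit at -0.22. The 4 oenocyte genes had a median of 0.11. All 21 testis genes lay above 0, between 0.06 and 0.42 with a median of 0.22, against 51.3% of all genes above 0. In starved males the same list had a median of 0.30 and in males on sugar for 48 h 0.34. The part of a change in the makeup of the tissue in the other results was not tested. Ratios give no expression level, so the labelled sex could not be checked from the values, and genes that are silent in males also give ratios near 0.

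After 48 h on sugar most of these lower genes lay further from the control. Whether the 48 h and 24 h males share control flies is not given, so their values are set side by side only. In all, 169 of 9210 genes were past 2-fold on the lower side then, 1.83%. The 104 genes lower at 24 h, with their median of -1.33, had a median of -1.79 in the 48 h males. Of them 86 lay lower at 48 h than at 24 h. Their median difference of 48 h minus 24 h was -0.37, against 0.01 over all genes. The share of all genes with a lower ratio at 48 h was not counted. The 95th percentile of the clone difference was 0.50 at 48 h and 0.37 at 24 h. The difference of 48 h minus 24 h was at least 2-fold below 0 in 31 genes (0.337%) and above 0 in 16 (0.174%). Jonah proteases had a median of -0.96 at the earlier time and -2.34 at the later, with 5 and 9 of 13 genes at least 2-fold lower. Jon25Bii lay at 0.17 at 24 h and -3.31 at 48 h, the furthest difference of all genes, at -3.48. LManV lay at -0.97 and -2.86 and Gart at -2.26 and -3.28. Nmdmc at -2.08 and -2.04 and Pepck1 at -1.73 and -1.49 did not lie lower at the later time. Gnmt, at 0.19 after 24 h, was at -1.17 after 48 h. Among genes above at 48 h were CG4998 at 1.80 and wap at 1.82, which had lain at 0.01 and 0.09 at 24 h. The difference of each gene between times was not tested.

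Males without any food for 24 h had fewer low genes than males on sugar. In starved males 52 of 9193 genes were at least 2-fold lower, 0.566%. Again it is not given whether the control flies were the same. The 103 lower genes with a value in both groups had a median of -0.78 in starved males, and 94 of them had a higher ratio there, the difference having a median of 0.61. They were chosen for low values on sugar, so values nearer to 0 elsewhere follow in part from that choice. The difference of starved minus sugar was at least 2-fold above 0 in 18 genes (0.196%) and below 0 in 34 (0.37%).

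Several purine and folate genes were among the 10 with the largest differences above 0. CG11089 lay at -0.90 in starved males and -2.85 on sugar, Sardh at -0.17 and -1.56, Gart at -0.90 and -2.26 and Pfas at -0.43 and -1.70. The purine synthesis list had medians of -0.40 starved and -1.03 on sugar, with 0 and 5 genes at least 2-fold lower, and the folate and glycine list -0.75 and -1.63. Pepck1 lay at 0.21 starved and -1.73 on sugar, on opposite sides of 0. Miox lay at 0.14 and -1.28, and bmm at -0.12 and -1.13. Maltases and amylases had a median of -0.65 starved and -1.19 on sugar. Jonah proteases ran the other way, with -1.49 starved and -0.96 on sugar. AGBE was low in both, at -1.34 and -1.60, and so was LManVI, at -1.81 and -2.18.

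The genes higher on sugar mostly lay near 0 in starved males. Each of the 10 had a lower ratio there, which follows in part from their choice for high values on sugar, and their median was 0.03. The sug gene lay at 0.02 starved and 1.05 on sugar, cbt at 0.02 and 1.08, CG5773 at 0.06 and 2.02 and CG13607 at 0.08 and 1.496. CG13558 was the exception, at 3.27 and 4.95. Of genes short of the threshold, AkhR lay at 0.02 starved and 0.59 on sugar, daw at -0.01 and 0.59 and CG12374, a carboxypeptidase, at -0.99 and 0.98. CG15879 at -3.36 and pwn at -2.64 were furthest below sugar in starved males, with -0.22 and -0.20 on sugar, and each rested on 1 clone.

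**Figure D4:**
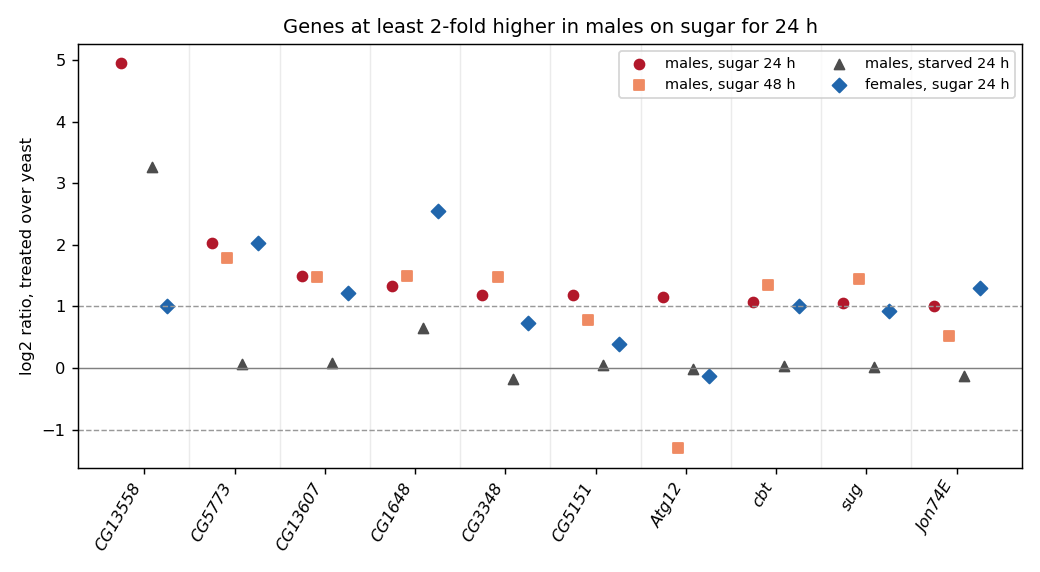
Log2 ratio of treated over yeast-fed flies (vertical axis) for the 10 genes at least 2-fold higher in males on sugar for 24 h, in 4 groups, with 1 merged value per gene and group and dashed lines at 2-fold. Starved males lie between -0.18 and 0.65 except for CG13558 at 3.27, which has no value in males on sugar for 48 h.

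Females on sugar for 24 h, compared with yeast-fed females, had 103 genes at least 2-fold lower, 1.12% of 9204. Of these 45 were also among the 104 lower genes of males, which is 43.3% of the male list and 43.7% of the female list. On the higher side females had 36 genes, 0.391% of those measured, and 6 were shared, which is 60% of the 10 of males and 16.7% of the 36. They were CG13558, CG5773, CG13607, CG1648, cbt and Jon74E, and sug at 0.92 in females was just below the threshold. The 104 male genes had a median of -0.86 in females, and 85 of them had a higher ratio in females, again in part because they were chosen for low values in males.

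The difference of females minus males was at least 2-fold above 0 in 29 genes (0.315%) and below 0 in 60 (0.652%). Gart lay at -0.74 in females and -2.26 in males, and the purine synthesis list at -0.35 and -1.03. CG11089 was low in both sexes, at -2.02 and -2.85, as was Shmt, at -1.63 and -2.22. Obp99b was at -0.05 in females and -1.65 in males. CG10621, at -3.17 and -1.74, and Lsp2, at -6.04 and -4.59, were lower in females. Mal-B2 lay at -0.15 in females and -1.28 in males, but tobi at -1.14 and -1.13, and the whole maltase and amylase list had medians of -0.95 and -1.19. Yolk and eggshell genes, which are made by egg-producing females, had a median of -2.80 in females and -0.02 in males, and muscle genes 0.50 and -0.06. The part of this shift in the makeup of the female RNA in the differences between sexes was not tested. Differences between sexes were not tested either.

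**Figure D5:**
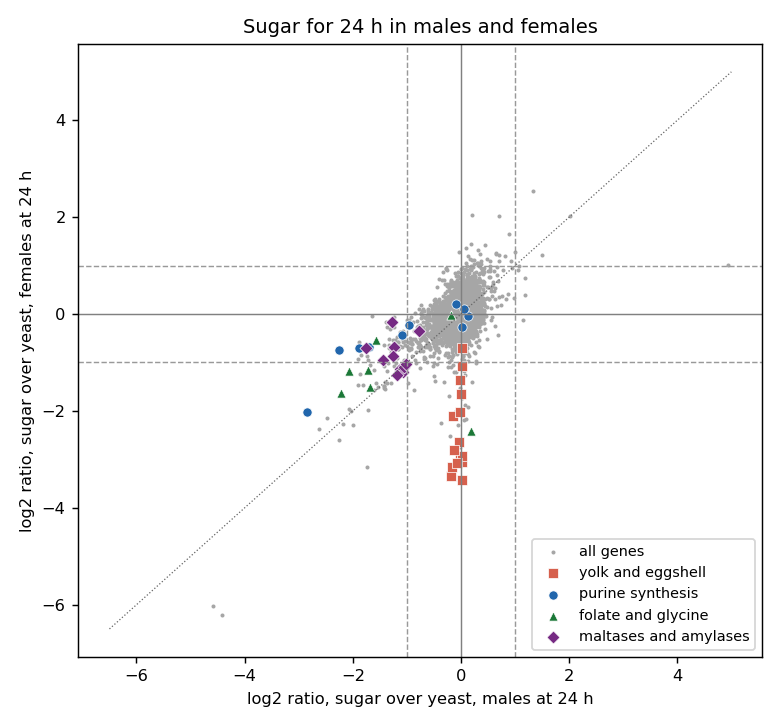
Log2 ratio of sugar over yeast at 24 h in males (horizontal axis) and females (vertical axis), 1 point per gene, with 4 gene lists coloured, dashed lines at 2-fold and a dotted line where both are equal. Yolk and eggshell genes spread down to -3.42 in females at male ratios near 0, while purine synthesis genes reach -2.85 in males and -2.02 in females.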

How the data were processed

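The deposited values are log2 ratios per spot. Per the labels, the authors scanned each array 3 times and used both spot copies and all repeat hybridisations for normalisation, so that copies and repeats carry the same value. How they were normalised and background-corrected is not given in the sources used here, spot brightness was not used, and the number of arrays limits the precision. Base 2 follows from the values themselves: turned into folds with base 2, 100% of them are numbers of 6 decimals, to a tolerance of 0.05 in the last decimal, and with base e 9.87% are.

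Of 32448 spots 24188 had a value, for 12094 clones. Symbols came from the platform annotation, brought up to date through RefSeq (assembly Release 6 plus ISO1 MT). A gene identifier named 9814 clones, an accession 87 and the old symbol 247. The other 1945 without a symbol and 1 with several stayed unnamed. The 10148 named clones gave 9212 genes, each the median over its clones, 773 of them with several. No filter was applied.

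The comparison, the 49 gene lists and the rule for named genes were chosen with earlier results of these data known. List names were adjusted to RefSeq symbols, wrong pattern matches were dropped and 2 lists were added after the values were seen. The rule names the 15 highest and 30 lowest genes, list members past 2-fold, the 3 highest and 3 lowest of each list, all members of the purine, folate, gluconeogenesis, glycogen and trehalose, sugar-sensing and adipokinetic lists, the 10 largest differences per direction, and genes at the threshold. Other genes in the text were chosen after their values were seen. Counting used Python 3.11.15 with pandas 2.3.3 and numpy 2.4.6. It was run on simulated data whose moved genes lay far past the threshold, so counts near the threshold were not tested. Alternatives were the threshold, the rule over clones, the centring and the platform's own symbols. A planned search of promoters was not run.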

Additional observations from a re-analysis of the deposited data

Results flagged for a closer look

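Atg12 lay on opposite sides of 0 at the 2 times in males on sugar, at 1.14 after 24 h and -1.31 after 48 h. The difference was not tested, and the gene rests on 1 clone. At 24 h it lay at -0.02 in starved males and at -0.13 in sugar-fed females.

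Of 1944 clones without a gene symbol that had a value in males on sugar for 24 h, 8 were at least 2-fold lower and 0 higher. The lowest was at -1.86 and the highest at 0.76. They entered no gene count and no list. No array stood apart within a group, since arrays of a group do not carry values of their own.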

How the results depend on the processing

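The count of higher and lower genes followed the threshold: 38 and 211 at 1.5-fold, 10 and 104 at 2-fold, and 2 and 33 at 3-fold, with lower genes more frequent each time. For the differences between groups, the genes above and below 0 by the threshold at 1.5-fold and at 3-fold numbered 78 and 108, then 3 and 5 for 48 h minus 24 h. They numbered 87 and 71, then 2 and 7 for starved minus sugar, and 211 and 156, then 2 and 36 for females minus males. In the last pair of comparisons more genes were thus above than below 0 at 1.5-fold, and more below than above at 2-fold and 3-fold. Counts stayed at 10 and 104 with the mean over clones, the clone nearest 0 or the platform's own symbols, and were 9 and 105 with the median clone set to 0. Of 162 genes 5 moved by more than the median clone difference with the clone nearest 0, and none with the mean over clones or the other centring. No list median of the 49 moved by that much under any of these 3. At 3-fold 16 of the 20 lists with lower genes, and at 1.5-fold 9 of them, changed their count by over 1.5 times. No gene or list past 2-fold changed sign. With the clone nearest 0, CG11247 went from -0.22 to 0.03 and the muscle list median from -0.06 to 0.00. Leaving out arrays was not possible with 1 merged value per group. No paired analysis was possible because all arrays of a group hold the same merged value. Spot brightness was not used here, so dim and bright genes were treated alike.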

Other observations

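The genes that were low in males on sugar for 24 h lay nearer to 0 in the other female groups. That follows in part from their choice for low values in these males. The 104 genes had medians of -0.71 in females on sugar for 48 h and -0.16 in females starved for 48 h, and 103 of them a median of -0.66 in females starved for 24 h. Shmt lay at -1.55 in females starved for 24 h and -0.73 at 48 h, and Pepck1 at 0.04 and 0.78. CG5773 lay at 0.97 and 1.79 in these groups and at 2.90 in females on sugar for 48 h.

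In the gene order of Release 6, 9 of 8965 pairs of adjacent measured genes had both members at least 2-fold lower. Besides the maltase runs, these were Jon66Ci with Jon66Cii, CG1208 with CG1213, CG18547 with CG3397, and CG6277 with CG6271. Members of such runs can be similar in sequence, and cross-hybridisation between them was not tested.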
